A study of Schizosaccharomyces pombe with 40 samples.

Results

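The 9 genes described here act in meiotic recombination in the fission yeast Schizosaccharomyces pombe, and they were taken by name from the deposited expression table, where rec6, rec7, rec10, rec12, rec15, rec25, rec27, dmc1 and hop1 each matched 1 of 7013 genes. In meiosis, recombination starts when Rec12, the fission yeast relative of Spo11, cuts DNA with the help of partner proteins, among them Rec6, Rec7 and Rec15. Fission yeast builds no synaptonemal complex. It forms linear elements along its chromosomes, with Rec10, Rec25, Rec27 and Hop1 as components, and Dmc1, a meiotic strand exchange protein, pairs the cut end with its partner chromosome. These genes are known for their induction in meiosis, and growing cells are known to keep many meiotic RNAs low.

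The series asked what is lost when fission yeast lacks ELL, a transcription elongation factor of RNA polymerase II, its partner EAF, or Ebp1. PolyA RNA was sequenced from 17 libraries of vegetative cells, grown in rich medium (YES with 225 µg/ml of each supplement) at 32 °C to mid log phase. Strain ED666 is h+ with the markers ade6-M210, ura4-D18 and leu1-32, and it gave 3 wild-type, 3 ebp1Δ and 3 eaf1Δ libraries, the deletions being delta-ebp1::kanMX6 and delta-eaf1::kanMX6. A second ED666 set, marked by a b after its replicate numbers and named ED666b below, holds 2 libraries each of wild type and ell1Δ (delta-ell1::kanMX6). Strain Pem2 is h- and shares the ade6, leu1 and ura4 markers of ED666. It also carries smt0, mat1_m-cyhS and rpl42::cyhR(sP56Q), and has the same 2 groups of 2 libraries (delta-ell1::natMX6). By the labels every strain has 1 mating type, and no label puts a group in meiosis. The sources used here do not say whether replicates came from separate cultures, so the p-values measure the spread between these libraries, which may be technical.

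The ED666 libraries held 6486554 to 9193169 recovered reads and those of the other sets 35337271 to 43374049. Levels are given as scaled CPM, in which every read of a library has the same worth and a library sums to 915972 to 1045682. The smallest level that 3 reads allow was 0.0704 to 0.456 scaled CPM, a limit that covers counting error only. Each deleted gene was lower in the libraries labelled as its deletion. The level of ebp1 fell from 69.1 to 9.46 scaled CPM in ebp1Δ (adjusted p = 8.87e-09, limma), and eaf1 from 49.5 to 21.1 in eaf1Δ (adjusted p = 5.31e-05, limma). That of ell1 fell from 79.0 to 18.6 in ED666b (adjusted p = 2.26e-05, limma) and from 69.9 to 28.2 in Pem2 (adjusted p = 0.0028, limma). Signal remained in every deletion, and its source was not tested. In Pem2 the call on ell1 was lost with only the 4 libraries compared (adjusted p = 0.138). The pheromone gene mfm2, a marker of M cells, stood at 82.6 in Pem2 wild type against 4.90 in ED666b wild type (adjusted p = 0.000393, limma). The labels give these strains opposite mating types. Of 5 M cell markers tested in this contrast, mfm2 was the only 1 called, and 4 had a positive log2 fold change. The 2 P cell markers tested were not called (median log2 fold change -0.21), so these markers separated the strains only in part. The mating-type gene mat1-Mc was at 0 in every ED666 and ED666b group and above 0 in the Pem2 libraries. It did not reach 1 scaled CPM in at least 2 libraries, so its Pem2 level was low as well. It was not tested between the strains.

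The recombination genes were low in growing cells. Per length, the median gene tested stood at 35.1 RPKM (scaled CPM per kilobase of gene), and all 9 members lay under it. The highest was rec6 at 22.04 RPKM, the mean over 7 groups, and rec10 and rec12 followed at 7.52 and 7.49. Then came hop1 at 3.03, rec27 at 2.52, rec25 at 2.41 and rec15 at 1.55. The lowest were dmc1 at 0.588 and rec7 at 0.514. In percentiles of the genes tested they ran from 34.6 for rec6 to 0.519 for rec7.

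Some steps of that order held in every library and some did not. The level per length of rec6 was above that of rec10, and that of rec12 above that of hop1, in 17 of 17 libraries. The step from rec25 to rec15 and the step from rec15 to dmc1 each held in 16 of 17. Neighbours that changed places were rec10 and rec12 (10 of 17 libraries in the order given), hop1 and rec27 (10 of 17), rec27 and rec25 (9 of 17) and dmc1 and rec7 (12 of 17), so these pairs did not differ beyond their spread. The lengths are those of the deposited gene models, and that of rec25, 2606 bases, is the longest of the 9. By the reference annotation all members but rec6 overlap a gene on the other strand. Use of strand in counting is not given, so their levels and this order are uncertain.

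**Figure D1:**
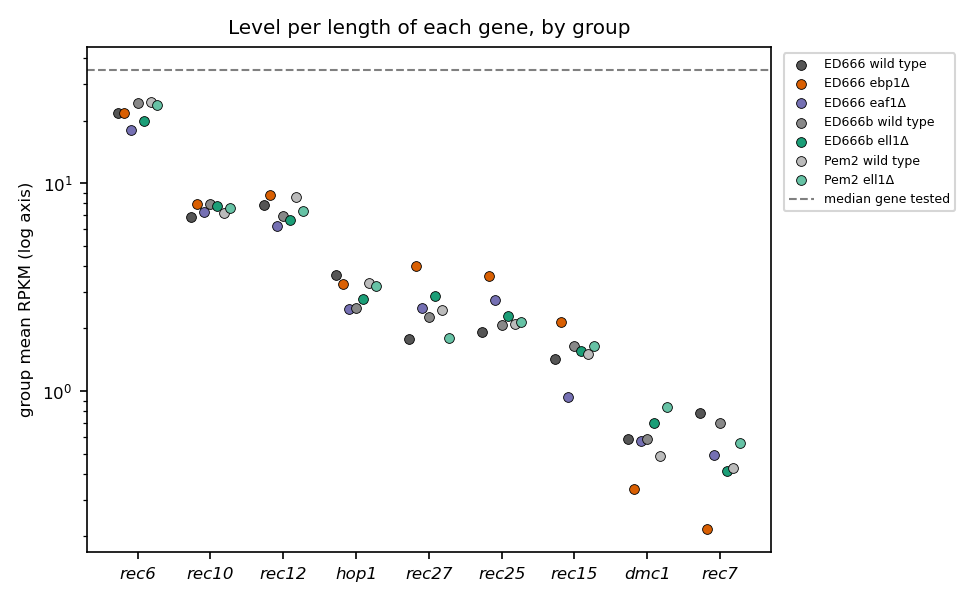
Group mean level per length (RPKM, log axis) of each of the 9 genes, 1 point per group, with a dashed line at the median gene tested (35.1 RPKM). All points lie under the line, from rec6 at 22.04 on average down to rec7 at 0.514.

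Among the genes of break formation, rec6 and rec12 stood above rec7 and rec15 per length. For rec12, the catalytic subunit of the break-forming complex, the libraries ran from 5.58 to 11.6 scaled CPM with a median of 7.90. For rec6, whose protein belongs to the same core complex, they ran from 10.6 to 16.7 with a median of 14.3. The partner genes rec7 and rec15 ran from 0.369 to 2.12 (median 0.837) and from 0.446 to 1.86 (median 0.946), with as few as 3 and 4 reads in an ED666 library.

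Among linear element genes, rec10, the main scaffold component, ran from 15.02 to 23.3 scaled CPM with a median of 18.9. The HORMA-domain gene hop1 ran from 2.83 to 10.6 with a median of 4.40. The small-protein genes rec25 and rec27 ran from 4.16 to 11.3 (median 5.65) and from 0.456 to 2.97 (median 1.41). The strand exchange gene dmc1 ran from 0 to 1.41 with a median of 0.589.

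All 9 members passed the filter of 1 scaled CPM in at least 2 libraries, which 6160 of 7013 genes passed. The lowest of them did so narrowly, since dmc1 reached that level in 2 libraries, rec15 in 5 and rec7 in 6. Their fold changes, on the log2(scaled CPM + 1) scale, understate their change.

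**Figure D2:**
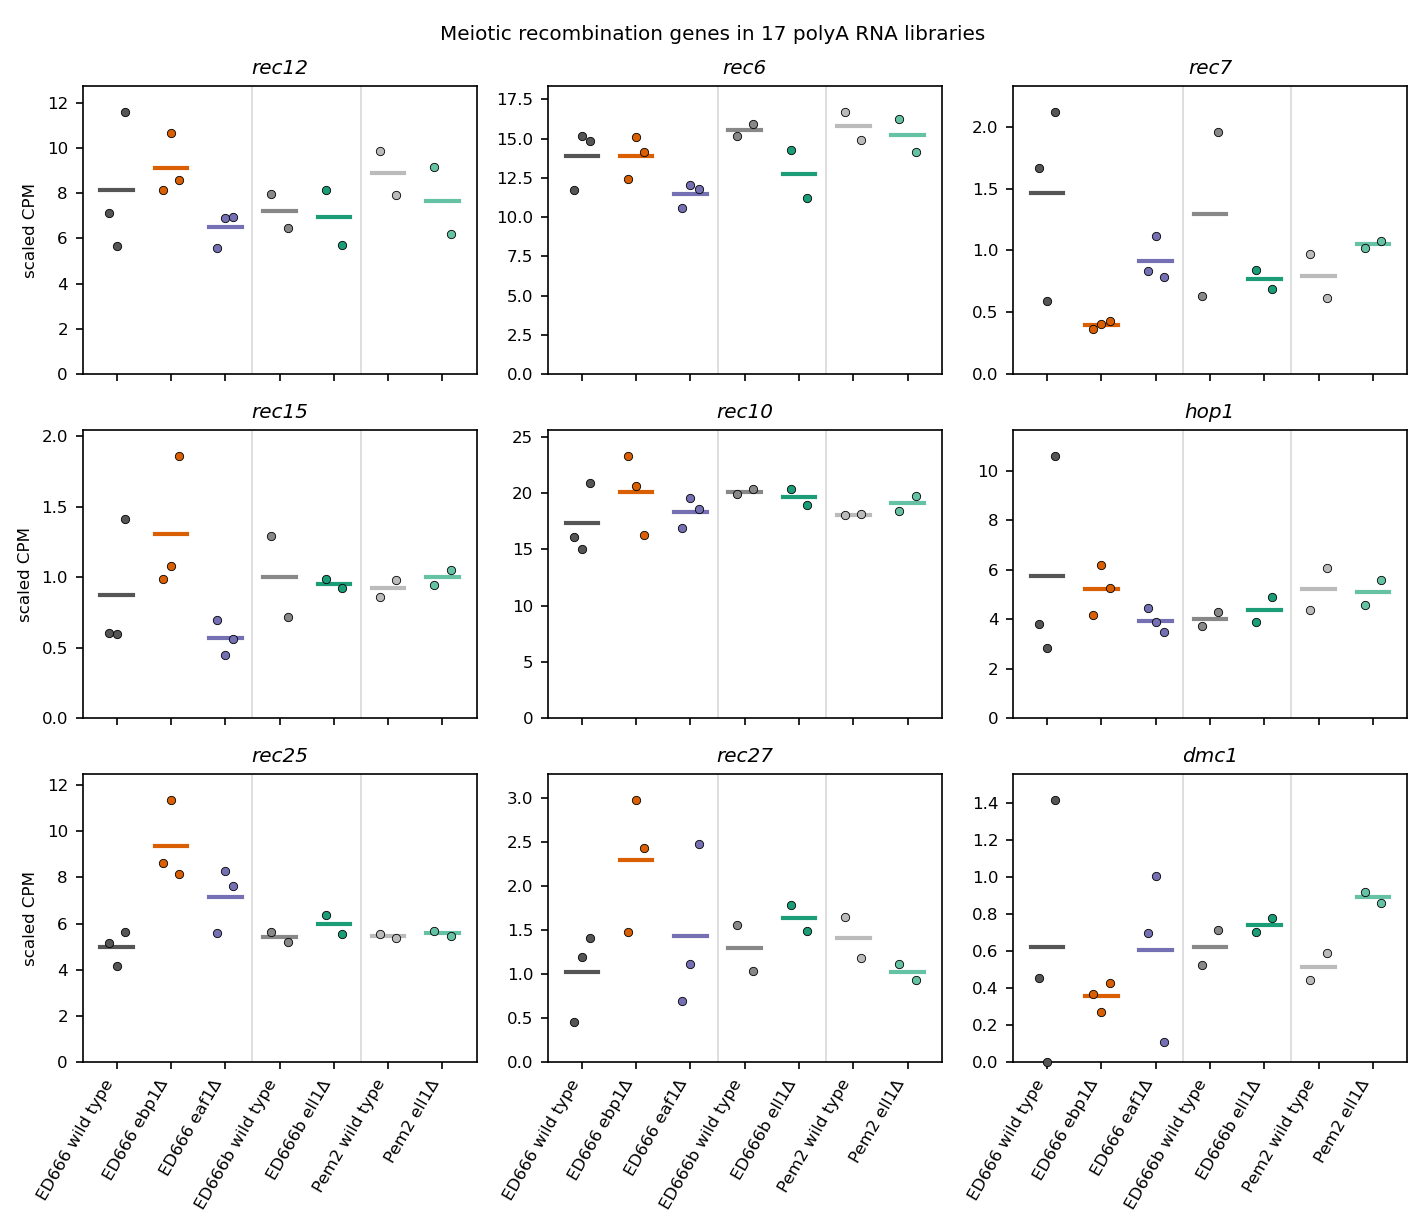
Level of each recombination gene in scaled CPM (linear axis from 0), 1 point per library and a bar at each group mean, with grey lines between the sets ED666, ED666b and Pem2. The 3 ebp1Δ libraries lie above all 3 ED666 wild-type libraries for rec25 and rec27 and below them for rec7.

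Loss of ebp1 came with more RNA of 1 of the 9 genes, rec25. In ED666 wild type rec25 stood at 5.16, 4.16 and 5.65 scaled CPM in the 3 libraries. In ebp1Δ it stood at 8.61, 11.3 and 8.14. All 3 deletion libraries lay above all 3 wild-type libraries, and the means were 9.36 ± 1.72 and 4.99 ± 0.757 (SD, n = 3 each), a ratio of 1.88. The log2 fold change was 0.79 (SE 0.14, 95% confidence interval 0.48 to 1.09, limma adjusted p = 0.00683). That SE rests on 1 spread per gene shared by all 17 libraries. The SD of rec25 was 0.757 to 1.72 scaled CPM in the ED666 groups and 0.132 to 0.585 in the deeper ED666b and Pem2 groups. The shared SE may thus be too small for this contrast. Over all genes tested, 3.67% were called in this comparison, so 1 call among 9 genes gives no reading about the group. The groups did not overlap for 3 members, beside 17.4% of all genes tested. In RNA from a whole culture, more RNA per cell and more cells that hold the RNA cannot be told apart.

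The call on rec25 held in 16 of 17 alternatives and was lost with only the 6 libraries of the comparison (adjusted p = 0.0911). The adjusted p over the alternatives ran from 0.00149 to 0.0911, and the log2 fold change from 0.52 to 0.93. In the authors' deposited table the log2 fold change of rec25 was 0.903 with an adjusted p of 0.0325. The gene overlaps pex6, a peroxisome biogenesis gene on the other strand, and no source used here says whether the authors counted by strand. The pex6 level was 72.1 scaled CPM in ebp1Δ and 72.5 in wild type.

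For rec27, whose protein forms a complex with Rec25, the ED666 wild-type libraries stood at 0.456, 1.19 and 1.41 scaled CPM. The ebp1Δ libraries stood at 1.48, 2.97 and 2.43, again without overlap. The log2 fold change was 0.71 (SE 0.26, 95% confidence interval 0.15 to 1.27), and it did not pass the test (adjusted p = 0.173, limma). These values rest on 21 reads in wild type and 51 in ebp1Δ, a ratio of 2.197 with an exact counting interval of 1.298 to 3.84. The interval covers counting error only, not the spread between libraries.

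The break-forming partner rec7 lay the other way. Its wild-type libraries stood at 1.67, 0.595 and 2.12 scaled CPM, and the ebp1Δ libraries at 0.369, 0.405 and 0.429, each from 3 reads. The groups did not overlap. The log2 fold change of -0.76 (SE 0.23, 95% confidence interval -1.26 to -0.26) did not pass (adjusted p = 0.101, limma), while the authors' deposited table gives -1.83 with an adjusted p of 0.0491. Summed over libraries there were 9 reads in ebp1Δ and 30 in wild type, a ratio of 0.271 with an exact counting interval of 0.113 to 0.586. That interval covers counting error only and leaves out the spread between libraries. Of 16 alternatives, 1 called rec7. That was the fit without wild-type replicate 2, the lowest of its group (adjusted p = 0.0108, limma, log2 fold change -1.04). Leaving out the lowest wild-type library widens the gap by construction, so no reading is drawn from it. Without any other 1 library of the comparison the adjusted p was 0.171 to 0.235 (limma).

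The other 6 genes overlapped between ebp1Δ and wild type, and no call was made on them. The break gene rec12 stood at 9.11 against 8.12 scaled CPM (log2 fold change 0.19, 95% confidence interval -0.28 to 0.66), and rec6 at 13.9 in both groups (0.00, interval -0.24 to 0.25). The scaffold gene rec10 stood at 20.1 against 17.3 (0.20, interval -0.07 to 0.47). The partner gene rec15 stood at 1.31 against 0.871 (0.31, interval -0.06 to 0.68). The intervals of hop1 and dmc1 were wide, -0.62 to 0.71 and -0.73 to 0.40. The median log2 fold change of the 9 genes was 0.19, against 0.0052 over all genes tested.

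**Figure D3:**
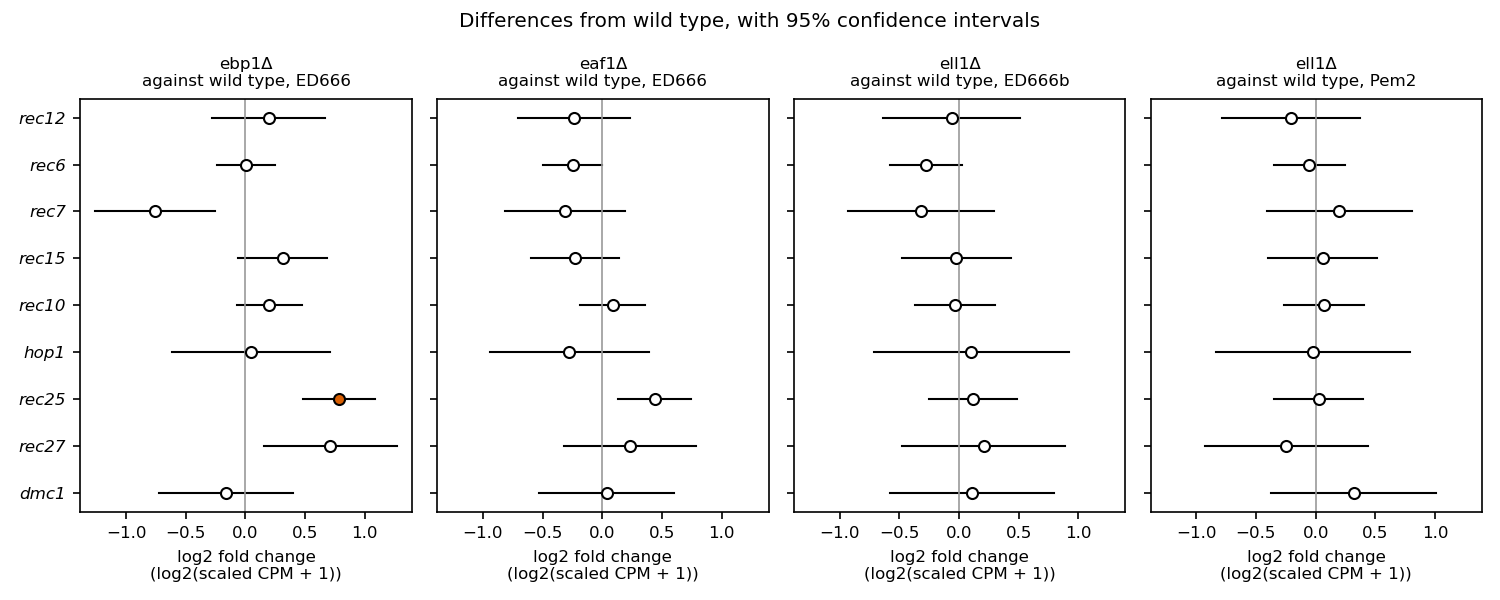
Log2 fold change of each recombination gene on the log2(scaled CPM + 1) scale, with 95% confidence intervals from limma, in the 4 deletion comparisons; a filled point marks an adjusted p under 0.05. The filled point is rec25 in ebp1Δ (0.79), and the widest intervals belong to the comparisons with 2 libraries a group.

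Loss of eaf1 moved none of the 9 genes past the test, where 0.844% of all genes tested were called. Here too rec25 had the smallest adjusted p (0.19, limma), with libraries at 5.58, 8.26 and 7.64 scaled CPM against 5.16, 4.16 and 5.65 in the wild type that both deletions share. Its log2 fold change was 0.44 (SE 0.14, 95% confidence interval 0.14 to 0.74). The lowest eaf1Δ library lay within the wild-type range. At an unadjusted p under 0.05 there were 2 members, rec25 and rec6, beside 13.1% of all genes tested. The eaf1Δ libraries of rec6 stood at 10.6, 12.1 and 11.8 scaled CPM against 11.7, 15.2 and 14.8, a log2 fold change of -0.25 (interval -0.49 to -0.0026). The median over the 9 genes was -0.23, against -0.0051 over all genes, and in no member were the groups free of overlap, beside 14.9% of all genes tested. By edgeR and DESeq2 on recovered reads no member was called either.

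Set directly against each other, eaf1Δ and ebp1Δ showed no called difference in the 9 genes by limma, edgeR or DESeq2 over all their libraries, where 2.97% of all genes were called by limma. At an unadjusted p under 0.05 there were 3 members, rec15, rec25 and rec6, beside 14.5% of all genes tested. The groups did not overlap for 4 members, beside 24.1% of all genes. One of them was rec15, with eaf1Δ libraries at 0.697, 0.446 and 0.562 scaled CPM and ebp1Δ libraries at 0.984, 1.08 and 1.86. Its log2 fold change was -0.54 (SE 0.17, adjusted p = 0.124, limma), from 14 reads against 29. The others were rec12 (-0.43), rec6 (-0.25) and rec7 (0.45). With only the 6 libraries of the comparison, rec7 was called (adjusted p = 0.0287). For rec25 the difference was -0.35 (95% confidence interval -0.65 to -0.04, adjusted p = 0.256), so its level in the 2 deletions was not shown to differ.

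Loss of ell1 was measured in both the ED666b and the Pem2 sets, at greater depth than the others, and called none of the 9 genes in either; the background was 0.519% and 0.244% of genes tested. The lowest adjusted p was 0.934 in ED666b and 1 in Pem2 (limma), and no member had an unadjusted p under 0.05 in either set, beside 5.76% and 4.24% of all genes. By edgeR and DESeq2 on recovered reads the count was also 0. In ED666b rec6 stood at 14.3 and 11.2 scaled CPM in ell1Δ against 15.2 and 15.95 in wild type, the only member without overlap there, beside 37.7% of all genes tested (log2 fold change -0.28, interval -0.58 to 0.02). In Pem2 rec25 stood at 5.68 and 5.49 against 5.57 and 5.37, with a log2 fold change of 0.02 (interval -0.35 to 0.39).

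In Pem2 the groups did not overlap for 4 members, rec7, rec10, rec27 and dmc1, beside 37.9% of all genes tested, so the count gives no reading about the 9 genes. The values of dmc1 were 0.921 and 0.858 scaled CPM in ell1Δ against 0.445 and 0.589 in wild type, or 72 reads against 40. The log2 fold change was 0.32 (95% confidence interval -0.37 to 1.006). The 95% intervals of the 9 genes had half-widths of 0.30 to 0.81 in the ell1Δ comparisons and of 0.25 to 0.66 in those of ED666. For each gene these use 1 spread shared by all 17 libraries. They differ between the sets by the number of libraries a group, and do not measure the spread within each set. The median log2 fold change over the members was -0.02 in ED666b and 0.02 in Pem2. The difference between the ell1Δ effects of the sets was called for none of the 9 genes, against 0.0325% of all genes. None had an unadjusted p under 0.05, a level at which the share of all genes was not computed for this contrast.

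Between wild types, mating type and background changed no recombination gene past the test. Pem2 wild type against ED666b wild type called none of the 9, where 0.0812% of all genes were called, and the 9 log2 fold changes lay between -0.30 (rec7) and 0.31 (hop1). ED666 wild type against ED666b wild type also called none, where 21.9% of all genes were called. The median log2 fold change there was -0.11 over the 9 genes, with 6 negative and 3 positive, and -0.13 over all genes. The confidence intervals of the 9 genes had half-widths of 0.27 to 0.74. The lack of calls thus does not show that the 9 genes were spared the shift of all genes. Sets differ in depth as well as in whatever else the suffix b marks, and these cannot be told apart. In both contrasts 0 members had an unadjusted p under 0.05, and edgeR and DESeq2 called 0. The share of all genes at that unadjusted level was not computed for these contrasts, so that count gives no reading about the 9 genes.

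Within ED666 wild type, replicate 3 was the highest of its group for 8 of the 9 genes, all but rec6, where 43.2% of all genes tested were highest in that library. The largest gap was that of hop1, at 10.6 scaled CPM against 3.80 and 2.83. For dmc1 the same library held 10 reads, against 3 and 0. The summed level of the 9 genes was 69.9 scaled CPM there, against 47.1 and 45.2 in the other wild-type libraries, and 57.6 to 68.6 in ebp1Δ. Without that library the log2 fold change of rec25 in ebp1Δ was 0.86 (adjusted p = 0.00658, limma), and rec25 remained the only member called. Since replicate 3 was the highest wild-type library for rec25, leaving it out widens the gap by construction. No reading is drawn from that fit.

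Of 11 markers of meiosis and spore formation, 10 were tested and 2 were called higher in ebp1Δ, beside 0.925% of all genes called higher. Of the other 8, 4 had a positive and 4 a negative log2 fold change, and none was called. The forkhead transcription factor gene mei4, an activator of middle meiotic genes, rose from 10.4 to 21.5 scaled CPM (log2 fold change 0.97, SE 0.20, adjusted p = 0.0191, limma). The gene spo6, for a regulator of the Spo4 kinase of meiosis II, rose from 10.6 to 16.8 (0.63, SE 0.13, adjusted p = 0.0189). Each call was lost in more settings than that of rec25, holding in 12 and 11 of 17 alternatives. That on mei4 was lost with only the 6 libraries (adjusted p = 0.0968) and without wild-type replicate 1 or 2 or ebp1Δ replicate 2 or 3 (0.0535 to 0.0919). That on spo6 was lost by edgeR (0.0566 without and 0.0596 with TMM scaling) and without wild-type replicate 1 or any 1 ebp1Δ library (0.0538 to 0.0664). The summed level of the 11 markers ran from 172 to 234 scaled CPM in wild type and from 199 to 235 in ebp1Δ, with none of them at 0 in any of these libraries. Their part in the difference of rec25 was not tested.

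Among other genes of the pathway few calls were made in the deletions. Of 83 genes in 7 lists (other break and linear element genes, cohesin, break processing, strand exchange partners, resolution and mismatch repair, chromosome movement, and regulators of meiotic gene expression), 79 were tested. In ebp1Δ 1 of them was called, mei4 (1.27%, beside 3.67% of all genes tested), and in eaf1Δ and both ell1Δ comparisons none by limma. At an unadjusted p under 0.05 there were 12 in ebp1Δ, 9 in eaf1Δ, 1 in ell1Δ of ED666b and 0 in ell1Δ of Pem2, where 17% of all genes tested passed that level in ebp1Δ, 13.1% in eaf1Δ, 5.76% in ell1Δ of ED666b and 4.24% in ell1Δ of Pem2. Close partners of the 9 genes showed small differences in ebp1Δ: rec14, a partner of Rec12 that is also used in growing cells, stood at 48.0 against 48.9 scaled CPM, rec24, a partner of Rec7, at 8.77 against 7.54, and mug20, a linear element gene, at 3.47 against 3.32. The meiotic cohesin gene rec8 stood at 10.7 in ebp1Δ and 11.9 in eaf1Δ against 5.30 in wild type and was not called in either (adjusted p = 0.256 and 0.282, limma).

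Between the ED666 and ED666b wild types, 22 of the 79 genes were lower in ED666 and none higher (27.8%, beside 17.9% of all genes called lower). Among these were the cohesin genes psm3, at 78.2 against 109.5 scaled CPM, and psc3, at 54.2 against 73.1. Others were the strand exchange genes rad52 (32.4 against 46.4) and fbh1 (76.0 against 95.1), the mismatch repair genes msh3 (67.8 against 96.8) and msh6 (95.7 against 129), and the RNA elimination genes mmi1 (73.1 against 98.8) and mtl1 (97.6 against 124). The break processing genes rad3 and tdp1 and the chromosome movement genes sad1 and taz1 were lower as well. None of the 9 recombination genes was among the calls of this contrast. The count depended on the setting: with only the 5 libraries compared 0 of the 79 genes were called, and without ED666b wild-type replicate 1 or 2 there were 12 or 11 lower. With quantile normalization 8 were lower and 2 higher, by edgeR with TMM 11 and 1, and by DESeq2 14 and 2.

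Of the 9 genes, 4 have an RNA that the table names as their antisense partner, and at hop1 and dmc1 it was the larger signal. Per length, hop1-antisense-1 stood at 35.8 RPKM against 3.03 for hop1, a ratio of 11.8. At dmc1 the antisense RNA stood at 29.6 RPKM against 0.588, a ratio of 50.3. In both cases it was above the gene in 17 of 17 libraries. At rec7 it was 0.935 against 0.514 RPKM and above the gene in 15 of 17, while at rec12 it was 2.58 against 7.49 and above the gene in none. Since use of strand in counting is not given, reads of a gene and of its antisense RNA may not have been told apart, and the levels of these 4 genes are uncertain for that reason.

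**Figure D4:**
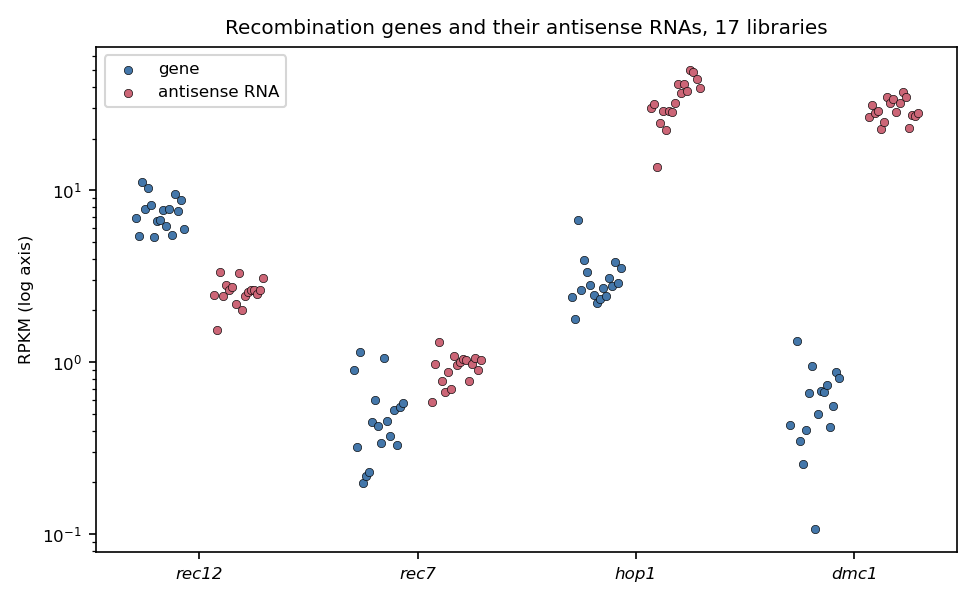
Level per length (RPKM, log axis) of rec12, rec7, hop1 and dmc1 and of the antisense RNA of each, 1 point per library over 17 libraries; the dmc1 value of ED666 wild-type replicate 2 is 0 and has no point. The antisense RNA lies above the gene in every library at hop1 and dmc1 and below it in every library at rec12.

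None of the 4 antisense RNAs was called against wild type in any deletion. Between eaf1Δ and ebp1Δ, dmc1-antisense-1 was higher in eaf1Δ, at 56.2 against 42.6 scaled CPM (log2 fold change 0.40, SE 0.10, adjusted p = 0.0479, limma). That call held in 7 of 17 alternatives, with adjusted p values from 0.0135 to 0.181, and it was lost without ebp1Δ replicate 2 or 3 or any 1 eaf1Δ library (0.0853 to 0.181). It was also lost with only the 6 libraries compared (0.0762), by edgeR without TMM scaling (0.1), with a pseudocount of 0.1 (0.0523) and with no filter on low values (0.0501). The level of dmc1 itself was 0.605 against 0.356 scaled CPM and not called. The RNAs tos1, tos2 and tos3, which lie opposite rec7 as rec7-antisense-1 does, had 0 reads in all 17 libraries. How reads shared by overlapping RNAs were counted is not given, so these zeros do not show that the RNAs were absent. Coding genes overlap 4 other members on the opposite strand: zip1 at rec10, pex6 at rec25, SPBC577.04 at rec27 and SPBC1711.15c at rec15. None of these coding genes was called in ebp1Δ, eaf1Δ or ell1Δ. Their median levels over the 17 libraries were 438, 80.6, 45.1 and 23.2 scaled CPM in that order. Since use of strand in counting is not given, the levels of rec10, rec25, rec27 and rec15 are uncertain as well.

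The genes whose pattern over the 17 libraries was most like that of rec25 were mes1 (r = 0.94), an inhibitor of the anaphase-promoting complex needed for meiosis II, and mei4 (r = 0.91). These are Pearson correlations of log2(scaled CPM + 1) with each library centred on the mean of its set, given as a description; the libraries share depth, set and deletion. The mean level of mes1 was 44.3 scaled CPM in ebp1Δ and 35.4 in ED666 wild type; since mes1 was chosen for its likeness to rec25 in these libraries, this is a description and no test of it is given. For mei4, the ED666 libraries ran from 8.92 to 12.3 scaled CPM in wild type, from 16.2 to 26.0 in ebp1Δ and from 10.7 to 19.3 in eaf1Δ. Its likeness to rec25 was found in these same libraries, so these ranges are a description too.

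**Figure D5:**
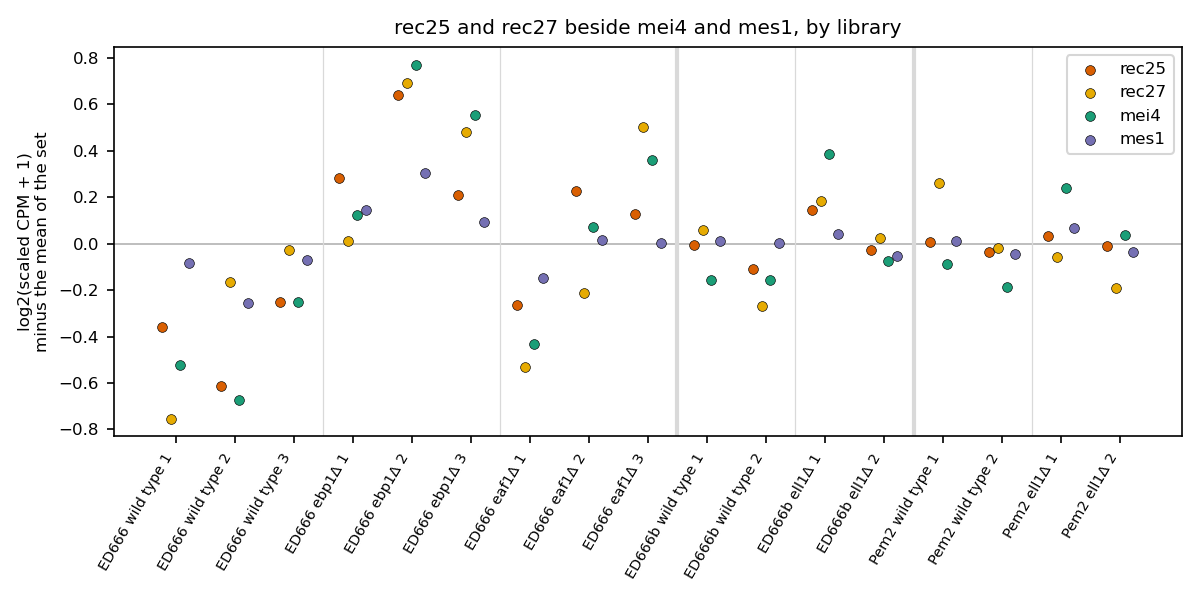
Level of rec25, rec27, mei4 and mes1 in each library, as log2(scaled CPM + 1) minus the mean of the library's set (ED666, ED666b or Pem2), with 1 point per gene and library. In ED666 all 4 genes are above the mean of the set in all 3 ebp1Δ libraries and below it in all 3 wild-type libraries. The genes mei4 and mes1 are shown for their likeness to rec25 in these libraries, so this is a description and no test.

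For the other members the nearest patterns belonged to varied genes. For hop1 these were wtf20 (r = 0.95), of the wtf family that holds meiotic drivers, and the noncoding RNA SPNCRNA.644 (0.93). For rec12 they were SPCC663.10-antisense-1 (0.94) and swc4 (0.90), for rec6 SPCC1450.09c-antisense-1 (0.91) and coy1 (0.88), and for rec27 the noncoding RNAs SPNCRNA.242 (0.91) and SPNCRNA.737 (0.90). For rec15 they were SPNCRNA.603 (0.91) and the hexose transporter gene ght3 (0.84), for rec7 zfs1 and SPBC1685.12c-antisense-1 (both 0.81), for rec10 SPAC664.12c (0.81) and yox1 (0.79), and for dmc1 hac1 (0.85) and mug147 (0.83). Each is the highest or next highest value among all other genes tested, and the counts behind rec7, rec15, rec27 and dmc1 are sparse. ED666 wild-type replicate 3 was the highest of its group for hop1, rec12 and rec15 and for the genes named beside them. How far these likenesses rest on that library was not tested.

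Among themselves the 9 genes formed 36 pairs, of which 30 had a positive correlation over the 17 libraries. The median was 0.28, beside -0.002 over all pairs of genes tested. ED666 wild-type replicate 3, the highest of its group for 8 of the 9 genes, enters each correlation, and its share in them was not tested. The highest was that of rec25 with rec27 (0.70), and the lowest that of rec7 with rec27 (-0.54). In the 4 groups of the deep sets, rec12, rec25 and rec27 were higher in replicate 1 than in replicate 2 in 4 of 4 groups. Of all genes tested, 21.6% had replicate 1 higher in all 4. For hop1 replicate 1 was higher in 0 of 4 groups, and the share of all genes with that pattern was not computed. No reading about the 9 genes is drawn from these counts.

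The reference annotation places the 9 genes on all 3 chromosomes. On chromosome I are rec10 (SPAC25G10.04c), rec12 (SPAC17A5.11), rec25 (SPAC17A5.18c) and dmc1 (SPAC8E11.03c). On chromosome II are rec6 (SPBC21B10.12), rec15 (SPBC1711.14), rec27 (SPBC577.05c) and hop1 (SPBC1718.02), and rec7 (SPCC1753.03c) lies on chromosome III. Next to rec6 on the other strand lies yox1, a repressor gene of the G1/S programme.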

How the data were processed

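The members and gene lists were chosen with earlier results of these data known. The authors deposited 1 table over 7013 genes. Its cpm columns, per the file headers, hold a signal: whole reads per gene times 1 constant per library (100% of values whole within 0.01), called scaled CPM. The RPKM values, per the file headers, equal that signal divided by gene length. The authors' log2 fold changes and their p-values stand in the same deposited table. Per the submitters' processing notes, TopHat2 2.1.1, Bowtie2 2.2.9, SAMtools 1.3.1 and edgeR were used with build ASM294v2; no source used here gives the counter or the use of strand. The ebp1Δ columns bear a code found in none of the labels and were assigned by elimination. The other 23 samples, of chromatin, were not analysed here.

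The 6160 genes that reached 1 scaled CPM in 2 or more libraries were tested with limma 3.58.1 (R 4.3.3) on log2(scaled CPM + 1), in 1 model of 7 group means over 17 libraries, and called at an adjusted p of 0.05 (Benjamini-Hochberg over 6160 genes). The design foresaw normalized values, and the signal was tested as such. Reads recovered from it were tested with edgeR 4.0.16 and DESeq2 1.42.0 as alternatives. The fit was tested on simulated data. Named genes are the 9 members, up to 2 called genes per pathway or marker list, direction and comparison, the 2 genes most like each member, RNAs overlapping a member, and the deleted genes; rec8, rec14, rec24, mug20 and the marker mat1-Mc were added after their values were seen. The reference is a later build, so it served for names (6845 of 7013 identifiers), chromosomes and neighbours, and no coordinates or sequences are printed. Replicates differed by more than sampling noise, with correlations from 0.980 to 0.996.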

Additional observations from a re-analysis of the deposited data

How the results depend on the processing

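With only the libraries of each comparison, 0 members were called in ebp1Δ, where 1 is reported, and 1 member, rec7, between eaf1Δ and ebp1Δ, where it is 0; the cause was not tested. With a replicate block, 2 members were called in ebp1Δ, rec25 (adjusted p = 0.0176, limma) and rec27 (adjusted p = 0.0252, limma), and the block ended no call on a member; with it the adjusted p of dmc1-antisense-1 between eaf1Δ and ebp1Δ was 0.0725. Same-numbered ED666 libraries deviated together weakly (r of -0.22 to 0.24 over 9 pairs, 5 over 0.1), and those of ED666b (0.65) and Pem2 (0.66) more strongly, but these sets have 2 numbers each and no label ties the numbers, so they were not treated as pairs. Leaving out 1 library at a time gave 1 to 2 members called in ebp1Δ, the 2 without wild-type replicate 2. No called value changed sign in any alternative; of 1109 member values called neither as reported nor in the alternative, 67 had the other sign. Counts over all genes depended more on the setting: 226 (65 to 368) in ebp1Δ, 52 (11 to 122) in eaf1Δ, 32 (5 to 88) and 15 (0 to 78) in ell1Δ of ED666b and Pem2, 183 (103 to 323) between eaf1Δ and ebp1Δ, 2 (2 to 4) for the difference of the ell1Δ effects, 5 (3 to 68) between Pem2 and ED666b wild types, and 1348 (25 to 1728) between the ED666 wild types. Leaving out wild-type replicate 3 gave 368 in ebp1Δ, and leaving out ebp1Δ replicate 2 or 3 gave 134 or 141. In eaf1Δ it was 24 or 21 without eaf1Δ replicate 2 or 3, between eaf1Δ and ebp1Δ 103 to 116 without ebp1Δ replicate 2 or 3 or eaf1Δ replicate 1 or 2, and in Pem2 3 to 9 without wild-type replicate 1 or either ell1Δ library; in the ED666 wild types it was 673 and 584 without ED666b replicate 1 and 2, and each library of ED666b left out took the ell1Δ count there to 5 to 8. In ED666, a level under 1 scaled CPM rests on fewer than 10 reads, which limits rec7, rec15, rec27 and dmc1. The promoter motif search was not run, since no promoter table was at hand.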
